A study of Mus musculus with 6 samples.

Results

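Smooth muscle and pericyte genes were examined in microdissected mouse thyroid at postnatal day 15. The set holds 10 genes of 18194 with a symbol on the array, and they were taken by name: Myh11, Acta2, Tagln, Cnn1, Des, Lmod1, Actg2, Smtn, Rgs5 and Pdgfrb. All 18 probe sets, of 45101 on the array, that the platform annotation gives to one of these genes alone were used. The 6 samples of thyroid RNA were hybridized on Affymetrix mouse 430.2 arrays, 3 from mice heterozygous for Slc26a4, the controls, and 3 from Slc26a4 knockout mice. Slc26a4 encodes pendrin, an apical anion exchanger of the thyroid follicle. The controls thus carry 1 changed allele of the gene, and no wild-type sample was compared. Each array is called by its genotype and its number in the series, which makes the controls heterozygous 1, 3 and 5 and the others knockout 2, 4 and 6. Whether the arrays stand for separate animals is not given by the labels, so errors and p-values cover only the spread seen among these 6 samples, part of which may be technical.

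Smooth muscle cells form the contractile wall of arteries, veins, airways and gut. Their contraction rests on filaments of smooth muscle actin and smooth muscle myosin, and calponin, transgelin, smoothelin and leiomodin bind the actin filaments. Many of these genes are driven by serum response factor together with myocardin, through a promoter element called the CArG box. Pericytes are mural cells that wrap capillaries, and the thyroid follicle is surrounded by a dense capillary net. They depend on the receptor for platelet-derived growth factor B, which endothelial cells secrete.

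The RefSeq promoter table of GRCm38.p6 held 6 of the 10 genes, namely Acta2, Cnn1, Des, Lmod1, Smtn and Rgs5. Not in it were Myh11, Tagln, Actg2 and Pdgfrb. The 250 bases before the start site are shown for 2 contractile genes and for the pericyte gene Rgs5, to set genes with and without matches to the CArG box side by side. Capitals mark 10-base matches to the CArG box with at most 1 mismatch. Acta2 lies on the minus strand at chr19:34255374-34255623, Lmod1 on the plus strand at chr1:135324563-135324812, and Rgs5 on the plus strand at chr1:169655251-169655500.
Acta2: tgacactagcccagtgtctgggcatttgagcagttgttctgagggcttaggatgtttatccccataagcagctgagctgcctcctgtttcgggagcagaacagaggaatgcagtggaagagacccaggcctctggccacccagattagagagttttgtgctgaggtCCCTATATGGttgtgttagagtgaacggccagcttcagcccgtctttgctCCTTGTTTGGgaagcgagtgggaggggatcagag
Lmod1: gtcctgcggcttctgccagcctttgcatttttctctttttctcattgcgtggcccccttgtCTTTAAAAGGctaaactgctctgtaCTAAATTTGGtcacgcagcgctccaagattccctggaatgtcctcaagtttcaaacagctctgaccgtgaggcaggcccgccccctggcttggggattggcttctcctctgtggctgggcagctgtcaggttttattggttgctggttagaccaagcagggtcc
Rgs5: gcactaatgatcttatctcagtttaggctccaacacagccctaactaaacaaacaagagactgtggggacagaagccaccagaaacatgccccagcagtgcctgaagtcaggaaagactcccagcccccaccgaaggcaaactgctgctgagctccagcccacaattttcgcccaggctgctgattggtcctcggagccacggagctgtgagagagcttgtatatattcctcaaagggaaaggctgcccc

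The matches in Acta2 began 84 and 34 bases before the start site, and those in Lmod1 began 189 and 164 bases before it. No exact CArG box was found in the 6 sequences, and 1.47% of the 32851 promoters in the table held one in the same window. With 1 mismatch allowed, 2 of the 6 genes and 18.6% of all promoters had a match. The contractile genes Cnn1, Des and Smtn had none, like Rgs5. Since Rgs5 was the only pericyte gene in the table, the matches could not compare contractile with pericyte genes. The CArG box reads the same on both strands, so both were covered. The element CATTCC, bound by TEAD factors, was present in 3 of the 6 genes, Acta2, Lmod1 and Smtn, and in 12.6% of all promoters. TATAAA was in 0 of the 6 genes and 12.4% of all promoters. CCAAT was in 4 of the 6, Cnn1, Lmod1, Smtn and Rgs5, and in 33.8% of all. Each of these elements was searched on both strands. These matches describe letters in the windows only.

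Between the genotypes, no smooth muscle or pericyte gene passed the test. Array signals are linear intensities, and each ± is the SD over the 3 arrays of a genotype. The brightest of 27 bacterial control probe sets read 22.9 on any array, and values above this are called above background. Differences are knockout minus heterozygous on the scale log2(signal + 16.7), and they understate the change of dim genes. Of the 18 probe sets, 13 were bright enough for the test, covering 9 of the 10 genes, with Cnn1 left out as too dim. By limma, 0 of the 13 passed at an adjusted p of 0.05 in either direction, and neither did any of the 27022 probe sets tested (0%). An unadjusted limma p under 0.05 was reached by 0 of the 13 and by 138 of all (0.511%), of which 66 (0.244%) were higher and 72 (0.266%) lower in knockouts. A test of each probe set on its own variance gave 283 such probe sets and 0 after adjustment. By each gene's brightest tested probe set, the 7 contractile genes had a lower mean in knockout thyroid with a median log2 difference of -0.15, and the 2 pericyte genes lay on either side of 0. The count of contractile genes with a lower estimate was 5 of 7 with array weights or without knockout 6, and 6 of 7 without knockout 2 or without heterozygous 5. Among all tested probe sets the median was -0.0021 and 50.7% had a lower knockout mean.

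On the arrays as a whole, the median signal was between 78.1 and 103.6, and between 67.5% and 73.8% of probe sets were above background. The targeted gene, Slc26a4, could not serve as a check of the labels, since probe set 1419725_at lay under background everywhere. It read 5.0 on heterozygous 1, 4.59 on heterozygous 3, 12.1 on heterozygous 5, 7.29 on knockout 2, 2.10 on knockout 4 and 15.7 on knockout 6. Thyroid follicular cell markers were bright on every array, with a summed signal of 5 genes, Tg and Dio1 the brightest, between 20742 and 25934 in heterozygous and between 21063 and 24262 in knockout samples.

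**Figure D1:**
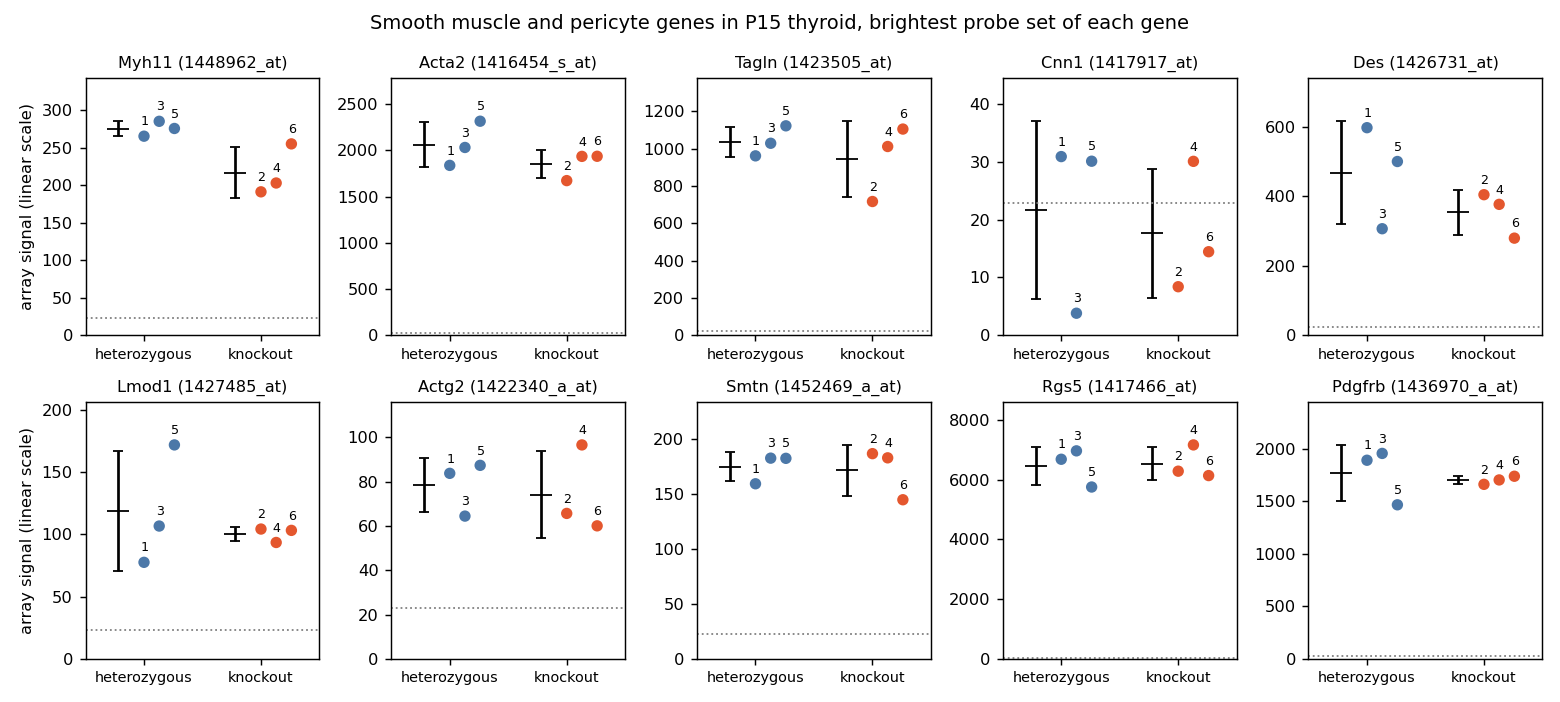
Array signal (linear scale) of the brightest probe set of each of the 10 genes, with 1 point per array labelled by its sample number, heterozygous in blue and knockout in orange; the bar beside each group is its mean ± SD (n = 3) and the dotted line is the background of 22.9. The genotypes do not overlap for Myh11, and they overlap for the other 9 genes, with Cnn1 near or under background.

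Myh11, the heavy chain of smooth muscle myosin and a specific marker of the lineage, was the 1 gene of the 9 tested whose genotypes did not overlap. By probe set 1448962_at the signals were 265, 285 and 276 on heterozygous 1, 3 and 5 and 191, 203 and 255 on knockout 2, 4 and 6. All 3 knockout values lay below all 3 heterozygous values, with knockout 6 the closest to the controls. The means were 275 ± 9.93 and 216 ± 34.1, and the log2 difference was -0.33 ± 0.17 (SE), its 95% interval running from -0.72 to 0.05. Myh11 thus missed the threshold (limma, unadjusted p = 0.077, Benjamini-Hochberg adjusted p = 1.0). All 3 knockout arrays lay below all 3 heterozygous arrays for 2.04% of the probe sets tested, and 3.21% had a difference as low as that of Myh11 or lower. For a single gene, an exact two-sided permutation test of 3 arrays against 3 cannot give a p below 0.1. The further Myh11 probe set, 1418122_at, read between 4.57 and 16.2 and was above background on no array, so it gives no second measure. The difference was not established, and even if it were, bulk tissue could not tell fewer smooth muscle cells from less RNA per cell.

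Smooth muscle actins and transgelin overlapped between the genotypes, and none of them passed. Acta2, the actin of vascular smooth muscle, read 1838, 2032 and 2317 on heterozygous 1, 3 and 5 and 1673, 1936 and 1937 on knockout 2, 4 and 6. Heterozygous 5 was the highest and knockout 2 the lowest, and heterozygous 1 fell among the knockouts. The means were 2062 ± 241 and 1849 ± 152, with a log2 difference of -0.15 ± 0.12 (SE) and an interval of -0.43 to 0.12 (limma, adjusted p = 1.0). This probe set, 1416454_s_at, has a suffix that marks probes shared by several transcripts, and actin isoforms are close in sequence, so other muscle actins could add to it. Both further Acta2 probe sets were dim. Probe set 1456658_at read between 6.93 and 24.7, and 1444105_at read 44.6 on heterozygous 5 and between 5.18 and 13.7 on the other 5 arrays.

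Tagln, which encodes transgelin, an actin-bundling protein of smooth muscle, read 961, 1029 and 1122 on heterozygous 1, 3 and 5 and 716, 1011 and 1105 on knockout 2, 4 and 6. Knockout 2 alone was low, and the other knockouts lay within the heterozygous range. The means were 1037 ± 80.9 and 944 ± 203, a log2 difference of -0.15 with an interval of -0.55 to 0.24. Without knockout 2 the difference was 0.03. Knockout 2 was also the lowest array for Myh11 and Acta2, whose differences without it were of the same sign as with it.

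Enteric smooth muscle actin, Actg2, read 83.8, 64.5 and 87.4 on the heterozygous arrays in the same order and 65.7, 96.6 and 60.1 on the knockouts. Knockout 4 was the highest of the 6 and knockout 6 the lowest, so the knockout values spanned the heterozygous ones. The log2 difference was -0.08, with an interval of -0.63 to 0.47.

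The thin-filament genes Lmod1 and Smtn and the inhibitor Cnn1 overlapped between the genotypes. Lmod1, a leiomodin that nucleates actin filaments in smooth muscle, read 77.4, 107 and 172 on the heterozygous arrays and 104, 93.4 and 103 on the knockouts. Both the lowest and the highest array were heterozygous, and the difference of -0.15 (interval -0.78 to 0.47) became 0.12 without heterozygous 5. Smtn, the cytoskeletal protein smoothelin, read 159, 182 and 182 on the heterozygous and 186, 183 and 144 on the knockout arrays. Its means were 174 ± 13.4 and 171 ± 23.2, a log2 difference of -0.03 with an interval of -0.44 to 0.38. Cnn1, or calponin, which slows the actomyosin cycle, read 30.9, 3.79 and 30.1 on the heterozygous and 8.38, 30.1 and 14.4 on the knockout arrays. It was above background on 3 of the 6 arrays and was not tested.

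Des encodes desmin. Desmin is the intermediate filament of smooth, skeletal and heart muscle and is found in pericytes as well. Probe set 1426731_at read 597, 306 and 499.96 on heterozygous 1, 3 and 5 and 404, 377 and 279 on knockout 2, 4 and 6. Heterozygous 1 and 5 were the highest, while heterozygous 3 lay between knockouts 4 and 6. The means were 468 ± 148 and 353 ± 65.7, and the log2 difference was -0.35 ± 0.26 (SE), its interval running from -0.95 to 0.24 (limma, adjusted p = 1.0). Without heterozygous 1, 3 or 5 or knockout 2, 4 or 6 in turn it moved between -0.62 and -0.16. The dimmer probe set 1426732_at, at 1.17 to 11.9, was above background on no array.

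**Figure D2:**
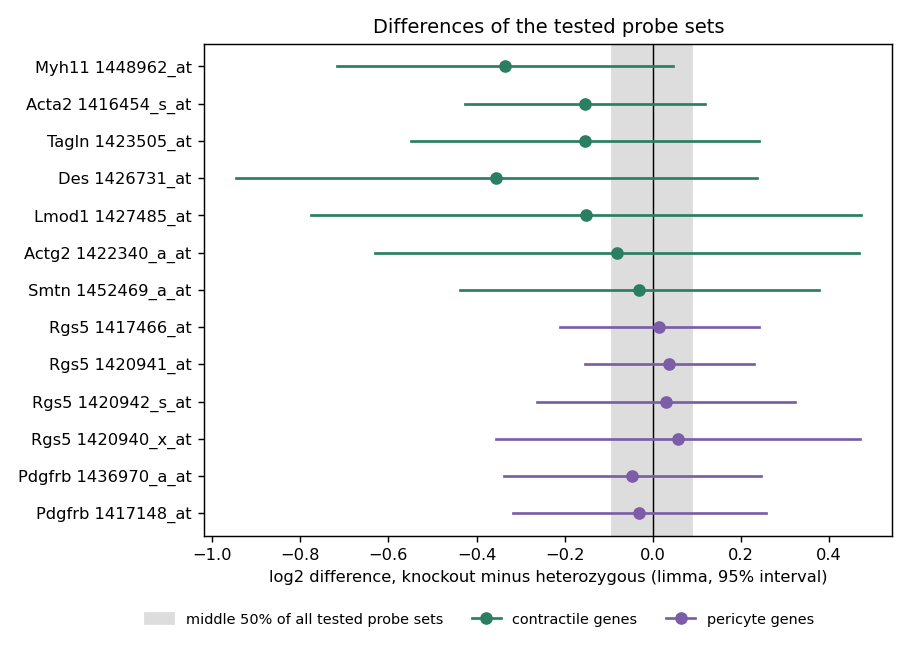
Log2 difference, knockout minus heterozygous, of the 13 tested probe sets with its 95% interval from limma, contractile genes in green and pericyte genes in purple; the grey band holds the middle 50% of all tested probe sets, from -0.093 to 0.088. Every interval includes 0, Myh11 and Des lie farthest to the left, and the 6 pericyte probe sets lie within the band.

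The pericyte genes were bright and close to equal in the genotypes. Rgs5, a regulator of G protein signalling that is abundant in pericytes, read 6689, 6971 and 5758 on heterozygous 1, 3 and 5 and 6289, 7169.55 and 6142 on knockout 2, 4 and 6 by probe set 1417466_at. The highest array was knockout 4 and the lowest heterozygous 5, and the genotypes overlapped throughout. The means were 6473 ± 634 and 6534 ± 556, a log2 difference of 0.01 with an interval of -0.21 to 0.24.

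The other 3 Rgs5 probe sets, which share a source sequence, gave differences of 0.04, 0.03 and 0.06. The brightest of them, 1420941_at, read 5359, 5405 and 5855 on the heterozygous and 5442, 6203 and 5429 on the knockout arrays, with an interval of -0.15 to 0.23. Knockout 4 was again the highest array, as in all 4 Rgs5 probe sets, and without it all 4 differences were below 0, between -0.08 and -0.03. Heterozygous 5 was the lowest array by 1417466_at but the second highest by the other 3, so the probe sets did not order the arrays alike.

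Pdgfrb, the receptor through which endothelial PDGF-B recruits pericytes and which fibroblasts carry too, read 1890.05, 1955 and 1466 on heterozygous 1, 3 and 5 and 1661, 1703 and 1738 on knockout 2, 4 and 6 by probe set 1436970_a_at. The 3 knockouts lay close together within the wider heterozygous range. The means were 1770.3 ± 266 and 1700.2 ± 38.6, a log2 difference of -0.05 with an interval of -0.34 to 0.24. The second probe set, 1417148_at, read 800.1, 756 and 662 against 679, 753 and 735, with a difference of -0.03 and an interval of -0.32 to 0.26. Both probe sets had their lowest value on heterozygous 5.

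The 9 tested genes did not move as a block across the arrays. Relative to each gene's own mean, the median of the contractile genes was highest on heterozygous 5, at 0.19, and lowest on knockout 2, at -0.16, a span of 0.35. The pericyte median ran differently, being lowest on heterozygous 5, at -0.20, and highest on heterozygous 3, at 0.14. On this log2 scale Lmod1 and Des had the widest spans of the 9, 1.001 and 1.05, with Lmod1 lowest on heterozygous 1 where Des was highest. Rgs5, at 0.32, and Smtn, at 0.33, had the narrowest. Of the 13 tested probe sets, 9 had a ratio of the highest to the lowest array below the median of all tested probe sets, 1.499. That median covers bright and dim probe sets alike, and the members were not compared with probe sets of like signal.

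**Figure D3:**
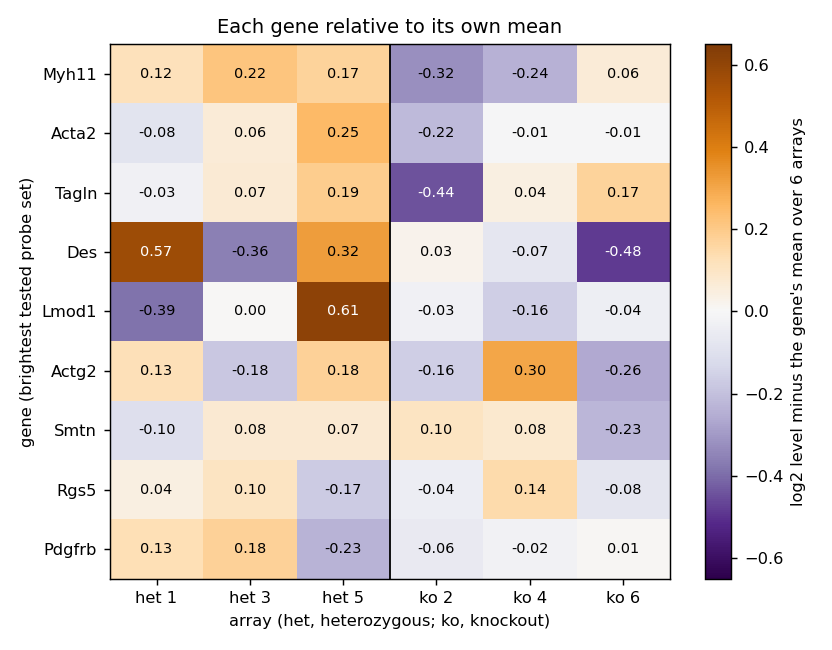
Log2 level of the 9 tested genes (rows, brightest tested probe set) on the 6 arrays (columns), each minus the gene's mean over the arrays, orange above and purple below it. Myh11 is above its mean on all 3 heterozygous arrays and on knockout 6 (0.064), Tagln is low on knockout 2 (-0.44), and Des and Lmod1 go opposite ways on heterozygous 1 (0.57 and -0.39).

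Markers of skeletal muscle, which also makes desmin, varied widely between the samples. The summed signal of 8 skeletal muscle genes, Mylpf and Myh1 the brightest, was 26630.4, 21329 and 17639 on heterozygous 1, 3 and 5 and 28081, 15328 and 5746 on knockout 2, 4 and 6. All 8 of these genes were above background on at least 1 array, and 7 of the 8 had a lower mean in knockouts, with a median log2 difference of -0.64 and 0 called by limma. Knockout 6 was the lowest array for both Des and the skeletal sum. Their highest arrays differed, with Des highest on heterozygous 1, at 597, and at 404 on knockout 2, where the skeletal sum was highest. Acta2, Myh11 and Tagln were lowest on knockout 2. The part of skeletal muscle in the Des values was not tested.

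**Figure D4:**
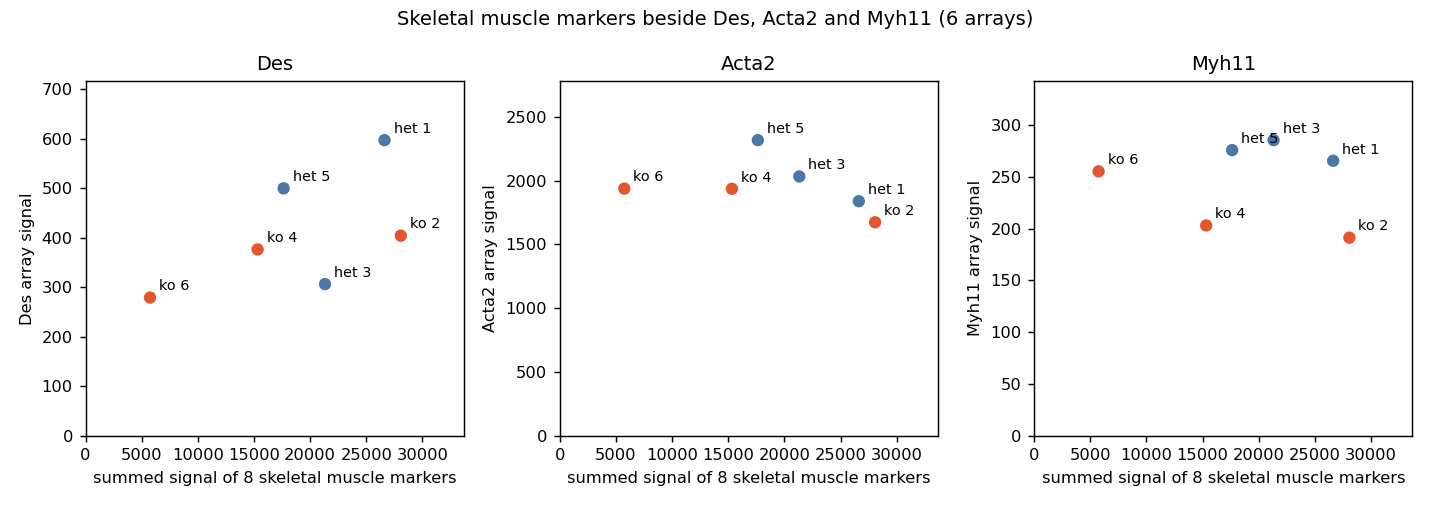
Array signal of Des, Acta2 and Myh11 (vertical axes, linear) against the summed signal of 8 skeletal muscle markers (horizontal axes, linear) on the 6 arrays, heterozygous in blue and knockout in orange. Knockout 6 has the lowest sum, 5746, and the lowest Des, 279. Knockout 2 has the highest sum, 28081, and the lowest Acta2 and Myh11, while Des is highest on heterozygous 1, at 597.

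Of the other tissues that a dissection could include, heart muscle gave little signal, since Myh6, Myl7 and Tnnt2 were above background on no array and Nppa reached only 26.6. Actc1, an actin of heart and of immature skeletal muscle, read 5632, 84.5 and 1342 on heterozygous 1, 3 and 5 and 1383, 1236 and 188 on knockout 2, 4 and 6. Oesophageal epithelium was dim, with a summed signal of 5 genes (Krt4 and Krt13 the brightest) of 77.6 to 347 in heterozygous and 87.3 to 196 in knockout samples, and Krt6a was above background on no array. Airway epithelium (5 genes, Scgb1a1 and Scgb3a2 the brightest) summed to between 2494 and 4932 and between 2405 and 4264, with Foxj1 above background on no array. Cartilage (5 genes, Col9a1 and Comp the brightest) summed to between 1394 and 2344 and between 1627 and 1927, with Matn1 above background on no array. Most of that sum was Col9a1, at 1174 to 2133. Col2a1 read between 12.6 and 36.0 and Acan between 23.5 and 44.6, both too dim for the test. Fibroblast markers (6 genes, Col1a1 and Col1a2 the brightest) summed to between 28740.0 and 30303 and between 27624 and 33065, and endothelial markers (6 genes, Emcn and Tek the brightest) to between 5223 and 5829.7 and between 4812 and 6409. Of these 6 lists, 0 genes were called by limma. Their part in the contractile and pericyte values was not tested.

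Among 30 tested partners of the contractile apparatus, 22 had a lower and 8 a higher knockout mean, with a median log2 difference of -0.06, and 0 passed in either direction (limma). With an array left out, this median ran from -0.080 without heterozygous 3 to -0.019 without knockout 6. The small heat shock protein Cryab, which guards desmin filaments, read 6585, 6568 and 5966 on heterozygous 1, 3 and 5 and 6086, 5638 and 4993 on knockout 2, 4 and 6 (log2 difference -0.20 ± 0.09, SE). Nexn, an actin-binding protein of striated and smooth muscle, had a difference of -0.45 and overlapped between the genotypes. Mylk, the kinase that switches on smooth muscle myosin, read 6028, 6554 and 5444 against 5559.85, 5607 and 5064, a difference of -0.15. Sorbs3, or vinexin, an adaptor at cell adhesions, read 700.1, 721 and 769 against 645, 618 and 685 and did not overlap, with a difference of -0.17. The lowest differences in the list were those of Ldb3 (-0.64) and Tpm2 (-0.48), followed by Nexn and by Synpo2 (-0.40). Ldb3, Tpm2 and Synpo2 were named after their values were seen, and all overlapped between the genotypes. Ldb3 and Tpm2 are made in skeletal muscle too. Synpo2 read 1953, 1461 and 848 on heterozygous 1, 3 and 5 and 2004, 920 and 563 on knockout 2, 4 and 6. It was highest on knockout 2 and lowest on knockout 6, as was the skeletal muscle sum. Cryab, Nexn, Mylk, Ldb3 and Tpm2 were also lowest on knockout 6, while Sorbs3 was lowest on knockout 4. The part of skeletal muscle in the values of this list was not tested. Myl9, the smooth muscle myosin light chain, and Tpm1, a tropomyosin, had differences of 0.05 and -0.02.

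Of 15 tested genes of the serum response factor pathway, 13 had a lower and 2 a higher knockout mean, with a median of -0.08 and 0 called. Srf itself read 584, 693 and 479 on heterozygous 1, 3 and 5 and 589, 563 and 308 on knockout 2, 4 and 6. Knockout 6 was low and the other knockouts lay within the heterozygous range (log2 difference -0.30, interval -0.89 to 0.30). The same array was the lowest for Mef2c, a muscle transcription factor (1018 against 1458 to 1765 on the others), for Klf5 (148 against 192 to 211) and for the myocardin-related coactivator Mrtfb (2283 against 2772 to 3489). Myocardin, Myocd, the coactivator that marks smooth muscle and heart, was named outside the rule. It read 124, 161 and 125 against 71.4, 135 and 142, lowest on knockout 2. Myh11, Acta2 and Tagln were lowest on that array as well, but Smtn was highest there. Des, Actg2 and Smtn were lowest on knockout 6, and Lmod1 on heterozygous 1. A link between Myocd and these genes was not tested.

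Of 25 tested further genes of mural cells and pericytes, 18 had a higher and 7 a lower knockout mean, with a median of 0.08 and 0 called by limma. Leaving out knockout 2 raised this median to 0.14, and leaving out heterozygous 5 raised it to 0.13. It fell to 0.068 without heterozygous 1, and to 0.057 with the filter at the 60th percentile of mean signal. Postn, the matrix protein periostin, which fibroblasts make too, read 3695, 4923 and 4445 on the heterozygous and 4722, 5617 and 5011 on the knockout arrays, a difference of 0.24. Foxf1, a transcription factor of mesenchyme, read 372, 535 and 553 against 607, 654 and 559 and did not overlap (0.33, interval -0.08 to 0.73). All 3 knockout arrays lay above all 3 heterozygous arrays for 1.64% of the probe sets tested. Ecm1, an extracellular matrix protein, had a difference of 0.24 with overlap. The G protein regulators Rgs16 (-0.38) and Rgs4 (-0.14), relatives of Rgs5, were lower on every knockout than on any heterozygous array, Rgs4 being named after its values were seen. Of the markers that define pericytes, Notch3 read 1077 to 1198 in heterozygous and 1196 to 1339 in knockout samples, and the potassium channel subunits Kcnj8 and Abcc9 had differences of -0.04 and 0.01. Cspg4, the proteoglycan NG2, read 131, 92.7 and 189.9 against 115, 177 and 183, and all 4 were above background on every array.

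The ligands and receptors that act on mural cells gave no call. In PDGF and angiopoietin signalling 8 of 19 tested genes had a higher and 11 a lower knockout mean, with a median of -0.04 that was above 0 without knockout 2 (0.042) or heterozygous 5 (0.044). Pdgfa, a ligand mostly of the alpha receptor, read 2373, 2245 and 2150.47 on heterozygous 1, 3 and 5 and 2193, 1987 and 1867 on knockout 2, 4 and 6, a difference of -0.16 with overlap. Jag1 (-0.18) and Notch1 (0.11), a Notch ligand and receptor, and Tek (0.15), the endothelial angiopoietin receptor, overlapped as well. Pdgfb, the ligand of Pdgfrb, was named outside the rule and had a difference of -0.05.

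Vasoactive receptors and the cGMP pathway had 8 higher and 8 lower of 16 tested genes and a median of -0.01. Mrvi1, the substrate through which cGMP-dependent kinase restrains calcium release in smooth muscle, read 444, 451 and 481 on the heterozygous and 407, 398 and 304 on the knockout arrays. The genotypes did not overlap (log2 difference -0.31 ± 0.16, SE, interval -0.67 to 0.05), and it did not pass (limma, adjusted p = 1.0). Cacna1c, the L-type calcium channel that opens for smooth muscle contraction, read 136, 131 and 149.6 against 125, 108 and 117 and did not overlap either, with a difference of -0.22. Ptger3, a prostaglandin E receptor (0.32), and Edn1, the vasoconstrictor endothelin (-0.32), overlapped. In these 5 related lists, 6 of 105 gene entries did not overlap, beside 3.68% of all probe sets tested.

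**Figure D5:**
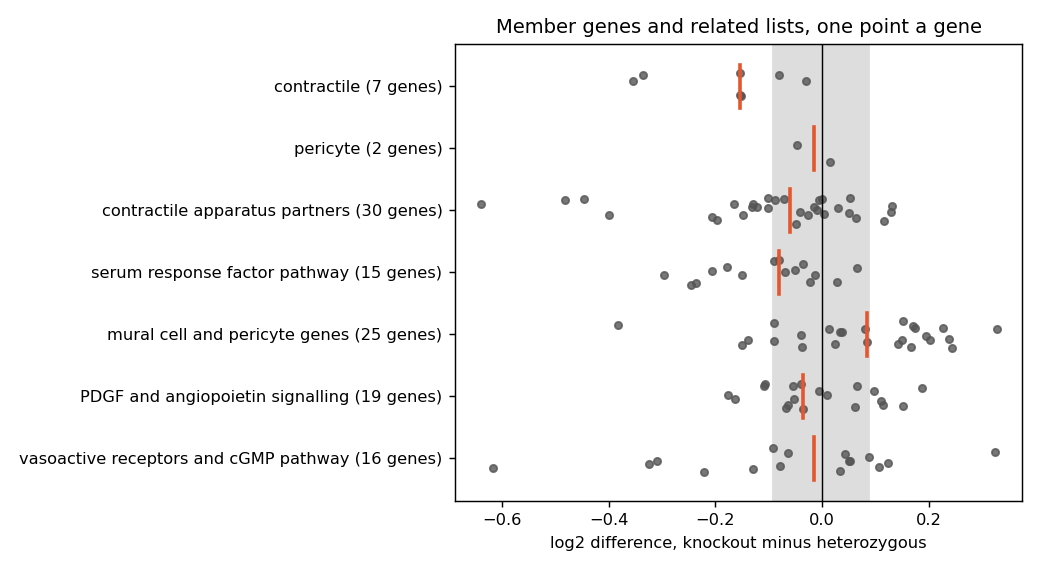
Log2 difference, knockout minus heterozygous, of each tested gene (points, spread vertically only to part them) in the contractile and pericyte genes and the 5 related lists, with the list's median as an orange line and the middle 50% of all tested probe sets in grey. The contractile median, -0.15, lies left of the band, the mural cell median, 0.08, lies within its right side, and 0 genes passed limma's test.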

How the data were processed

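The authors deposited 1 linear intensity for each probe set on each array. These were made with GCOS, software of the maker of the arrays, per the submitters' processing notes, with no version or settings given there. The mean after trimming 2% at each end was 500.002 on every array, so the arrays had been scaled to a common mean. Of the 45101 probe sets, 34958 had 1 gene symbol in the platform annotation, 932 several and 9211 none. Signals were taken as log2(signal + 16.7), the 25th percentile of all values. The 64 control probe sets were left out, and the 27022 probe sets with a mean log2 value above the 40th percentile (signal 43.5) were tested with limma 3.58.1 in R 4.3.3 (lmFit, eBayes with trend, Benjamini-Hochberg over all tested). Each gene was represented by its brightest tested probe set. The fit was tested on simulated data. The members, lists and named genes were chosen with earlier results of these data known. All probe sets of the members are given, the 4 genes of smallest unadjusted p of each related list, and the 2 brightest of each list of another tissue. Genes most like the members over the arrays were to be named where the median profile spanned at least 1 log2 unit, which neither did. Some genes of the lists were not analysed here. Alternatives were other normalizations, pseudocounts, filters and variance models, each array left out, and the mean over a gene's probe sets. The number of arrays limits the precision.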

Additional observations from a re-analysis of the deposited data

How the results depend on the processing

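No member was called under any of the 15 settings tried (limma, adjusted p from 0.959 to 1.0), and 0 probe sets of the whole array were called higher or lower in each, also with any 1 array left out. Lmod1, Actg2 and Smtn were too dim for the filter at the 60th percentile. Myh11 (-0.45 to -0.26), Acta2 (-0.23 to -0.07) and Des (-0.62 to -0.16) kept a lower knockout estimate throughout. Of 192 member values over the settings, 17 changed sign, 15 of them on leaving out an array. With array weights Actg2 was 0.12 and Smtn 0.050. With an array left out the ranges were -0.28 to 0.030 for Tagln, -0.38 to 0.12 for Lmod1, -0.25 to 0.029 for Actg2, -0.091 to 0.076 for Smtn, -0.18 to 0.030 and -0.11 to 0.027 for the Pdgfrb probe sets 1436970_a_at and 1417148_at, and -0.067 to 0.071, -0.026 to 0.078, -0.075 to 0.13 and -0.040 to 0.17 for the Rgs5 probe sets 1417466_at, 1420941_at, 1420942_s_at and 1420940_x_at. The median over the members was -0.084 with array weights and -0.19 to -0.067 with an array left out. The median of the contractile partners was -0.12 with array weights, -0.094 with the mean of a gene's probe sets and -0.080 to -0.019 with an array left out. That of the serum response factor pathway was -0.14 to -0.023 with an array left out, and that of the vasoactive list 0.059 with array weights and -0.049 to 0.077 with an array left out. The mural cell median was 0.14 with array weights, 0.057 with the filter at the 60th percentile and 0.068 to 0.14 with an array left out. For PDGF and angiopoietin signalling the median was 0.0093 with array weights and 0.0083 with the mean of a gene's probe sets. With an array left out it was -0.075 to 0.044. At an unadjusted p under 0.05 the count was 712 without a filter, 297 without a trend, 915 with array weights and 934, 366 and 510 without knockout 2, heterozygous 5 and knockout 6. The cause of these moves was not tested. No paired analysis was run, because the labels do not say whether any heterozygous and knockout samples belong together. Dim probe sets limit Cnn1 and the second probe sets of Myh11 and Des, which lay near or under background.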
